A study of Homo sapiens with 6 samples.

Results

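The ETS factors described here are 10 transcription factor genes: the PEA3 group (ETV1, ETV4 and ETV5), ETS1 and ETS2, and the factors ELF1, ELF3, ELF4, ELK3 and EHF, several of which are typical of epithelial cells. They were chosen by name, as rows of the deposited table whose Ensembl identifier carries one of these symbols. Of the 10 genes, 7 had such a row among 25927 Ensembl genes, and all 7 passed the filter on low values. ETV5, ELF3 and ELK3 had no row under their own identifier and are not analysed here. A missing row does not show that a gene was not expressed. The 2 cell lines compared both derive from SW480, a human colorectal adenocarcinoma line, and both carry Cas9 from a lentivirus. SW480-45 is labelled HPSE-knockdown, and SW480-NC, labelled control, carries a control guide. The only sequenced knockdown line that the paper names is SW480-KD1, so SW480-45 was taken to be that line. Each line gave 3 libraries, which the paper describes as independent experiments, and whether a line was grown from a single clone is not given in the sources used here. HPSE encodes heparanase, the enzyme that cuts heparan sulfate, and the comparison asks how the transcriptome differs when it is reduced.

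ETS factors share a DNA-binding domain that reads the letters GGAA. Many of them are phosphorylated by the ERK kinases, and at the promoters of matrix metalloproteinases (MMPs) they act next to AP-1, the dimer of FOS and JUN proteins. The PEA3 group is named after a site in the polyomavirus enhancer, and ETV4 is known to act together with AP-1 at the MMP7 promoter in intestinal tumor cells.

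To show the DNA these factors read, the 250 bases before the RefSeq start of MMP7 and MMP10 are given 5′ to 3′ on the strand of the gene. EGR1 is shown with them because it is a known target of ETS factors bound beside serum response factor, and it was added after its values had been seen. The capitals mark the ETS core GGAA, the PEA3 motif AGGAAG, the AP-1 motif TGAGTCA and the CArG box (the binding consensus of serum response factor), each on either strand, so that a GGAA of the other strand reads TTCC. Coordinates are on GRCh38.p14.
MMP7 (chr11:102530748-102530997, minus strand): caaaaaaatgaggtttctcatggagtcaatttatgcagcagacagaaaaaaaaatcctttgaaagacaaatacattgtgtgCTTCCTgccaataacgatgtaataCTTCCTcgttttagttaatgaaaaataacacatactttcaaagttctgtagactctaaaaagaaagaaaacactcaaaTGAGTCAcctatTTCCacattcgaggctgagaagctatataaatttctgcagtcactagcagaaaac
MMP10 (chr11:102780629-102780878, minus strand): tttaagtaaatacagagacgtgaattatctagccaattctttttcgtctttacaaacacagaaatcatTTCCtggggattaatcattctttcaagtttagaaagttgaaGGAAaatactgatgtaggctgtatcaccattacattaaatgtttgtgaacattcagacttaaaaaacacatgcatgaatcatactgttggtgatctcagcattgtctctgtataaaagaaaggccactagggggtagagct
EGR1 (chr5:138465229-138465478, plus strand): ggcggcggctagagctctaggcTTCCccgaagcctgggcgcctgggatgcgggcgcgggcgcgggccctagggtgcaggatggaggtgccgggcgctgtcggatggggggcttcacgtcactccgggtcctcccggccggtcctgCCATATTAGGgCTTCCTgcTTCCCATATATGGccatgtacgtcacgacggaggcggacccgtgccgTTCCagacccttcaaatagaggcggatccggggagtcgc

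In the MMP7 window the letters AGGAAG occurred 2 times, at -169 to -164 and at -145 to -140, both on the other strand, and TGAGTCA occurred once, at -67 to -61. Another GGAA stood beside it, at -55 to -52. In windows that reach from 250 bases before to 50 bases after a start, AGGAAG was found in 33.6% of 35116 RefSeq windows, TGAGTCA in 4.95% and both together in 1.79%. At least 2 matches of AGGAAG were found in 7.9% of windows. Each AGGAAG also contains the GGAA letters, and GGAA alone was found in 95.5% of windows, with a median of 3 matches. The MMP10 window held 2 GGAA letters, at -182 to -179 and at -141 to -138, and neither longer motif. EGR1 held 2 CArG boxes, at -105 to -96 and at -83 to -74, and 1.29% of all windows hold at least 1. Between them lay AGGAAG at -94 to -89 and another GGAA at -86 to -83 that overlaps the nearer box by 1 base, all on the other strand. MMP11, MMP14 and MMP15 had 1, 5 and 2 GGAA matches and neither AGGAAG nor TGAGTCA. Of the 8 MMP genes tested below, 5 were in the promoter table, and MMP1 and MMP13 were not. Only exact letters were counted, so near matches, such as tgaatca in the MMP10 window, are left out. A match is only a run of letters, and no binding was measured.

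**Figure D1:**
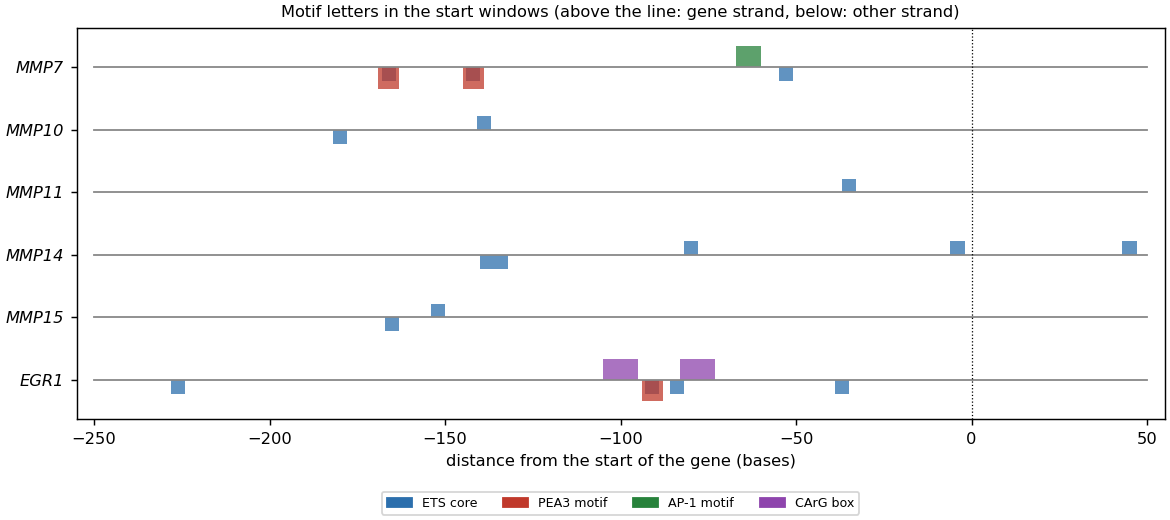
Motif matches in 6 start windows, plotted by distance in bases from the start of the gene (x axis), with 1 line per gene, boxes above the line for the strand of the gene and below it for the other strand. Only MMP7 among the 5 MMP windows holds the exact letters of the PEA3 motif, 2 times, and of the AP-1 motif, 1 time.

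The libraries held 33221323 to 39802365 reads, and the deposited values are normalized counts, that is reads divided by a size factor for each library. HPSE itself had 136, 172 and 146 normalized counts in SW480-45 and 269.9, 295 and 246 in SW480-NC, which do not overlap. Its log2 fold change was −0.83 (standard error 0.14), with an adjusted p = 0.0547 from limma. The RNA of the targeted gene thus stood lower without passing the adjusted threshold. The paper assessed the knockdown on HPSE protein, by western blot, and protein was not measured here. Fold changes are differences of log2(normalized count + 1), SW480-45 minus SW480-NC, and the Benjamini-Hochberg adjustment covered all 21703 features whose mean over the 6 libraries reached 10 normalized counts. Of 10 markers of colon epithelium, 7 had a row and 6 passed this filter, with CDX2 low, at 19.0 to 40.3 normalized counts. The summed level of these markers was 111278 to 119778 in SW480-45 and 128955 to 136556 in SW480-NC, without overlap. Most of this sum was KRT8, with means of 75512 and 87410.3 and a log2 fold change of −0.21 (limma, adjusted p = 0.141). KRT20 fell by 0.81 on the log2 scale (adjusted p = 0.00719 from limma), the 1 call among the markers tested, where 0.802% of all features were called. VIL1 had the opposite sign, 0.20 (adjusted p = 0.225 from limma), with libraries that do not overlap. Fibroblast markers (3 of 6 with a row) summed to 276 to 386 in SW480-45 and 229 to 264 in SW480-NC, endothelial markers (3 of 4) to 28.0 to 43.2 and 12.6 to 26.5, and blood cell markers (2 of 6) to 38.6 to 44.3 and 31.9 to 46.7. None of the genes with a row was at 0 in all libraries. PTPRC, the defining marker of blood cells, had no row, but neither had the epithelial markers KRT18, CDH1 and CEACAM5. A missing row therefore does not show absence. The part of these markers in the results below was not tested. In bulk RNA, fewer cells that express a gene and less RNA of it per cell cannot be told apart.

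None of the 7 ETS factors passed an adjusted p of 0.05 in limma, where 0.802% of all features did, 0.332% higher and 0.47% lower in SW480-45. In edgeR 0 of the 7 passed as well, and in DESeq2 2 passed, ETV4 and ELF4. DESeq2 called more features in all, 756 of 21703, against 174 in limma and 136 in edgeR. At an unadjusted p under 0.05, 3 of the 7 passed in limma, ETV4 and EHF with higher and ELF4 with lower values in SW480-45. The same threshold was passed by 16.2% of all features, 8.1% higher and 8.15% lower. With at least 2-fold change added, 0 of the 7 passed, against 2.42% of all features. For 3 of the 7 no SW480-45 library fell within the range of SW480-NC or the reverse, against 23.4% of all features. The median log2 fold change of the 7 factors was −0.03, against −0.0048 for all features, and their median absolute log2 fold change was 0.17, against 0.20.

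**Figure D2:**
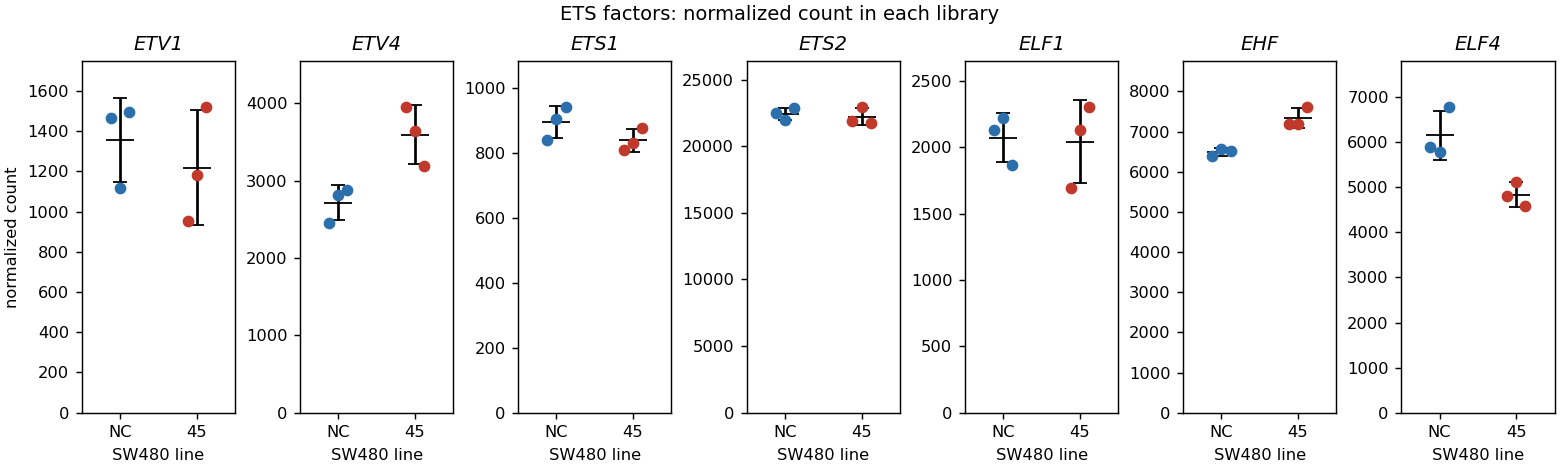
Normalized count (y axis, from 0) of each of the 7 ETS factors in the 3 SW480-NC and the 3 SW480-45 libraries. Points are libraries, and bars give the mean and SD. ETV4 and EHF lie higher and ELF4 lower in SW480-45, each without overlap, while the libraries of the other 4 factors overlap.

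ETV4 (ENSG00000175832, chromosome 17 of GRCh38, 43527844 to 43579620, minus strand in GENCODE 29) encodes the PEA3 protein itself. It had 3955, 3639 and 3194 normalized counts in SW480-45 and 2454, 2813 and 2876 in SW480-NC. The lowest SW480-45 library lay above the highest SW480-NC library. The means were 3596 ± 383 (SD, n = 3) and 2714 ± 228 (SD, n = 3), a 1.32-fold ratio on the log2 scale of the fit. The log2 fold change was 0.40 (standard error 0.10, 95% interval 0.16 to 0.64), with an unadjusted p = 0.005 and an adjusted p = 0.133 from limma. In DESeq2 on the recovered reads its adjusted p was 0.0381, and in edgeR 0.131. The exons of ETV4 share 68 bases (1.89% of its exon bases) with DHX8 on the opposite strand, and strand is not given for the counting. DHX8 had a log2 fold change of 0.02 (limma, adjusted p = 0.935).

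ETV1 (ENSG00000006468, chromosome 7), the other PEA3 factor with a row, gave no such separation. Its values were 952, 1180.4 and 1519.6 in SW480-45 and 1462, 1116 and 1493 in SW480-NC. The SW480-NC values all lie within the range of SW480-45, whose spread was the widest, relative to the mean, of the 7 factors. The log2 fold change was −0.17 (standard error 0.19), with a 95% interval from −0.60 to 0.26 that does not contain a 2-fold change in either direction. Within a library, the level of ETV4 per kilobase of exon was 11.1, 8.22 and 5.60 times that of ETV1 in SW480-45 and 4.47, 6.72 and 5.13 times in SW480-NC. These ratios overlap, since the lowest SW480-45 library lies between the SW480-NC libraries.

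ETS2 (ENSG00000157557, chromosome 21) is a factor that ERK activates by phosphorylation. Per kilobase it was the most abundant ETS gene with a row, and of the 7 factors it had the log2 fold change nearest to 0. It had 21929.9, 22947 and 21752 normalized counts in SW480-45 and 22483, 21964 and 22870.2 in SW480-NC, with a log2 fold change of −0.02 and a 95% interval from −0.13 to 0.10. ETS1 (ENSG00000134954, chromosome 11), its nearest relative and a classical activator of protease genes, had 809, 833 and 879 in SW480-45 and 842, 904 and 943 in SW480-NC. Its libraries overlap, and the interval of its log2 fold change ran from −0.30 to 0.11.

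EHF (ENSG00000135373, chromosome 11, 34621093 to 34661057, plus strand) is an ETS factor of epithelial tissues. It had 7189, 7179 and 7615 normalized counts in SW480-45 and 6382, 6567 and 6523 in SW480-NC. The lines did not overlap, but the step between them was small, with means of 7328 ± 249 (SD, n = 3) and 6491 ± 96.9 (SD, n = 3). The log2 fold change was 0.17 (standard error 0.06, 95% interval 0.04 to 0.31), with an unadjusted p = 0.0183 and an adjusted p = 0.215 from limma. Leaving out 1 library at a time kept its unadjusted p under 0.05 in 4 of 6 cases.

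ELF4 (ENSG00000102034, X chromosome, 130064874 to 130110716, minus strand), also called MEF, had the smallest unadjusted p of the 7 factors. Its normalized counts were 4806, 5121 and 4591 in SW480-45 and 5904, 5776 and 6781 in SW480-NC. All SW480-45 libraries lay below all SW480-NC libraries. The means were 4839 ± 266 (SD, n = 3) and 6154 ± 547 (SD, n = 3), a log2 fold change of −0.34 (standard error 0.08, 95% interval −0.54 to −0.15), with an unadjusted p = 0.00372 and an adjusted p = 0.121 from limma. DESeq2 gave an adjusted p of 0.0483 and edgeR 0.127. ELF1 (ENSG00000120690, chromosome 13), a close relative of ELF4, had 1693, 2128 and 2302 in SW480-45 and 2131, 2220.3 and 1865 in SW480-NC. Its libraries are mixed, and its log2 fold change of −0.03 (95% interval −0.33 to 0.27) turned to 0.10 without SW480-45 replicate 1 and to 0.02 without SW480-NC replicate 2.

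For ETV4, EHF and ELF4 alike, a two-sided exact permutation test over the libraries gave p = 0.1, the smallest that 3 libraries against 3 allow. ETV4 and ELF4 kept an unadjusted p under 0.05 with any of the 6 libraries left out, with log2 fold changes from 0.33 to 0.49 and from −0.39 to −0.27. Among 9703 Ensembl genes with a symbol whose mean reached 50 normalized counts, those nearest to ELF4 over the 6 libraries were PLEK2, ALDH3A1 and LCMT2. Their centered log2 values differed from those of ELF4 by a root mean square of 0.02, 0.03 and 0.04, a description of 6 libraries only.

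Levels of different genes were compared as normalized counts per kilobase of exon, with the exon length taken from GENCODE 29. That length is the union of all annotated exons of a gene, 9616 bases for ETV1 and 3607 for ETV4. It can exceed the length of the transcripts expressed, so the ratios, the order and the shares depend on it. In SW480-NC the order of the 7 factors was ETS2, EHF, ELF4, ETV4, ELF1, ETV1 and ETS1. ETS2 stood apart at 4883 ± 99.0 (SD, n = 3) per kilobase, followed by EHF at 1479.9 ± 22.1 (SD, n = 3) and ELF4 at 1426 ± 127 (SD, n = 3), whose libraries overlap. ETV4 was at 753 ± 63.1 (SD, n = 3) and did not reach ELF4 in SW480-NC. In SW480-45, EHF (1671 ± 56.8, SD, n = 3) and ELF4 (1121 ± 61.7, SD, n = 3) no longer overlapped, while ELF4 and ETV4 (997 ± 106, SD, n = 3) did. ETV1 and ETS1 were the lowest, overlapped each other in both lines and lay between 99.0 and 158 per kilobase. Of the summed level of the 19 ETS genes with a row, ETS2 made 41.4% to 42.4% in SW480-45 and 42.4% to 42.8% in SW480-NC. ETV4 made 7.76% to 9.51% and 5.92% to 6.91%, and ELF4 9.32% to 10.1% and 11.9% to 13.5%. These shares follow from the counts above and are not a separate measurement.

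**Figure D3:**
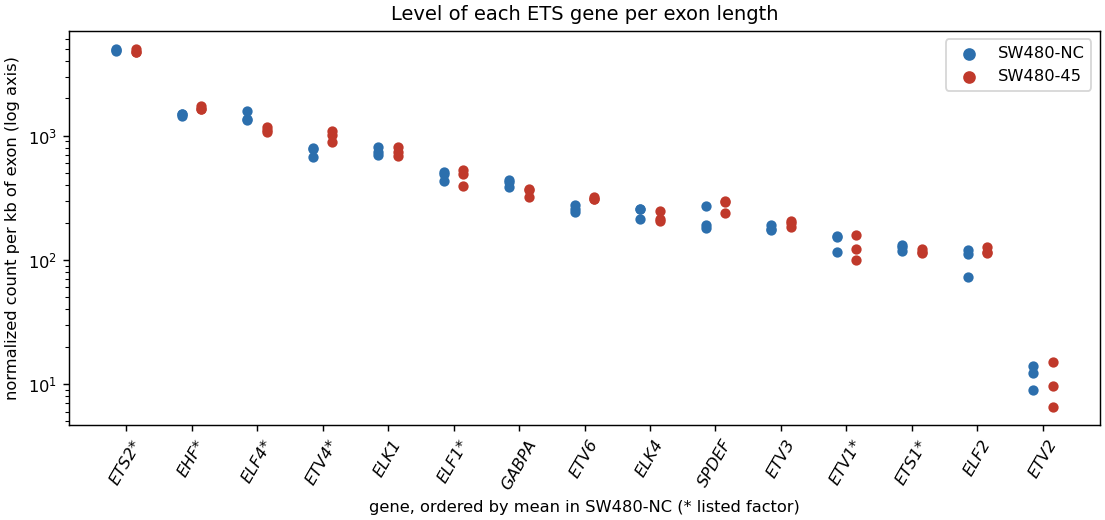
Level of the 15 more abundant ETS genes per kilobase of exon (y axis, log scale), in order of their mean in SW480-NC (x axis), with 1 point per library. ETS2 lies above all others in both lines, and EHF and ELF4 overlap in SW480-NC but not in SW480-45.

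The rest of the ETS family counts 18 genes, of which 12 had a row and 8 passed the filter. Of these 8, 0 passed the adjusted threshold in limma, edgeR or DESeq2 and, in limma, 2 passed an unadjusted p of 0.05. Of all features, 0.802% passed the adjusted and 16.2% the unadjusted threshold in limma. ETV6, a repressor of the family, had a log2 fold change of 0.27 (limma, adjusted p = 0.172). GABPA, which serves many housekeeping and mitochondrial genes, had −0.24 (limma, adjusted p = 0.263), the lowest value of the 8. SPDEF, a factor of secretory cells, had the highest, 0.39 (adjusted p = 0.34 from limma), with 565, 576 and 458 normalized counts in SW480-45 and 525, 369 and 344 in SW480-NC, which overlap. ELK1 and ELK4, the partners of serum response factor, had −0.01 and −0.12. SPI1, a factor of blood cells, had no row, and ETV3L, ETV7, FEV and ELF5 stayed under the filter.

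**Figure D4:**
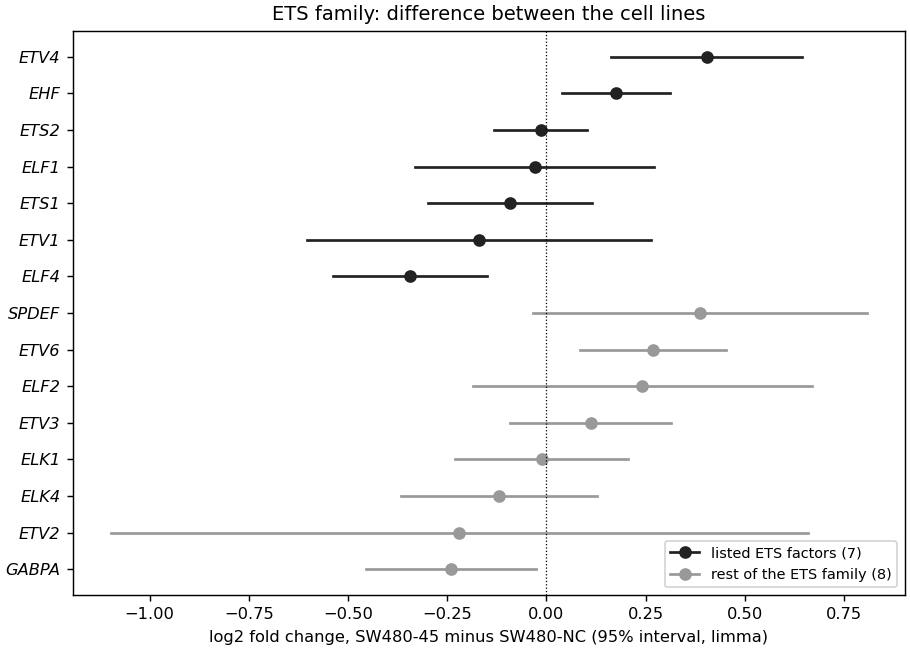
Log2 fold change of SW480-45 against SW480-NC (x axis) with its 95% interval from limma, for the 7 listed ETS factors (dark) and the 8 other ETS genes tested (grey). The intervals of ETV4, EHF and ELF4 exclude 0 before adjustment, and those of ETS1, ETS2, ELF1 and ETV1 contain it.

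Proteins that act on ETS factors were read next. Of 11 such genes 7 had a row, 0 passed the adjusted threshold in limma, edgeR or DESeq2 and, in limma, 2 passed an unadjusted p of 0.05. The limma shares over all features were 0.802% adjusted and 16.2% unadjusted. COP1, a ubiquitin ligase that marks PEA3 factors and ETS1 and ETS2 for degradation, had 1827, 1664 and 1811 normalized counts in SW480-45 and 1983, 1970.2 and 2032 in SW480-NC. Its log2 fold change of −0.18 was small though the lines did not overlap (adjusted p = 0.303 from limma). MAPK3, which encodes an ERK kinase, had the highest value of the list, 0.39 (limma, adjusted p = 0.219). Its normalized counts were 555, 708 and 625 in SW480-45 and 444, 452 and 543 in SW480-NC, without overlap. The coactivators EP300, CREBBP and MED25 had log2 fold changes of −0.15, −0.11 and 0.14. CIC, the repressor of the PEA3 genes, had no row.

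Genes that are commonly read as output of the ERK pathway gave 1 call among the 11 tested of 14, in limma, which called 0.802% of all features. EGR1, an immediate early gene, rose by 0.76 on the log2 scale (standard error 0.09, adjusted p = 0.0159 from limma). Its normalized counts were 3005, 2922 and 3256 in SW480-45 and 1923, 1650.5 and 1849 in SW480-NC, far apart relative to the spread within each line. EGR1 kept its adjusted call with 3 of the 6 libraries left out in turn. It lost it without SW480-45 replicate 1 (adjusted p = 0.0639 from limma), without SW480-45 replicate 3 (0.053) and without SW480-NC replicate 2 (0.061). The feedback inhibitors DUSP6, SPRY2 and SPRED2 had log2 fold changes of 0.14, −0.05 and 0.02, and CCND1, which encodes cyclin D1, had −0.03. DUSP5 had the lowest value of the list, −0.40 (adjusted p = 0.247 from limma), and DUSP4 had 0.39 (adjusted p = 0.297 from limma). The median of the 11 genes was 0.02.

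AP-1, the usual partner of ETS factors at MMP promoters, gave 1 call among 10 subunits tested of 11. The share called over all features was 0.802%. FOSL1, which encodes FRA1, fell by 1.16 on the log2 scale (standard error 0.16, adjusted p = 0.0343 from limma), with 1004, 646 and 728 normalized counts in SW480-45 and 1881, 1674 and 1693 in SW480-NC. The lines are well separated, but the adjusted call of FOSL1 held with 1 of the 6 libraries left out, SW480-45 replicate 1 (limma adjusted p = 0.0138), and was lost without any other, with limma adjusted p-values of 0.0633 to 0.114. FOS, JUN and JUNB had log2 fold changes of 0.22, −0.37 and −0.04 and overlapping libraries. BATF2 had the largest positive value, 1.59 (adjusted p = 0.136 from limma), at 22.6 to 41.5 normalized counts in SW480-45 and 6.76 to 12.6 in SW480-NC. In DESeq2 2 AP-1 genes passed, where 756 of 21703 features did.

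Among the MMP genes, 2 of the 8 tested passed the adjusted threshold in limma, MMP7 and MMP1, both lower in SW480-45. Of all features 0.802% passed it, and 0.47% passed with lower values. At an unadjusted p under 0.05 in limma, 6 of the 8 passed, 2 higher and 4 lower, against 16.2% of all features. With at least 2-fold change added, 5 passed, against 2.42%. The libraries of 7 did not overlap, against 23.4%. MMP7, which encodes matrilysin and whose window carries the 2 PEA3 motifs and the AP-1 motif, fell by 1.30 on the log2 scale (adjusted p = 0.000775 from limma). Its normalized counts were 5544, 4993 and 5280.5 in SW480-45 and 12596, 12824 and 13448 in SW480-NC. The libraries of MMP10, whose window held neither longer motif in exact letters, were at 25.3, 42.4 and 19.8 against 73.2, 94.6 and 108. The log2 fold change of MMP10 was −1.68 (limma, adjusted p = 0.0723). MMP1, the interstitial collagenase, fell by 2.00 (adjusted p = 0.01 from limma). MMP13, another collagenase, had −1.47 (adjusted p = 0.182 from limma). MMP11 had the highest value, 1.72 (adjusted p = 0.13 from limma), on 31.1 to 33.7 normalized counts in SW480-45 and 5.30 to 16.7 in SW480-NC. Beside a fall of MMP7 to 40.7% of its level in SW480-NC, ETV4, EHF and ELF4 stood at 132%, 113% and 78.6% and ETS2 at 99.0%. These are RNA levels only, and a link between the ETS factors and MMP7 was not tested. The MMP values of these libraries were known before the lists were chosen, so they serve here only as the setting for the ETS factors.

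**Figure D5:**
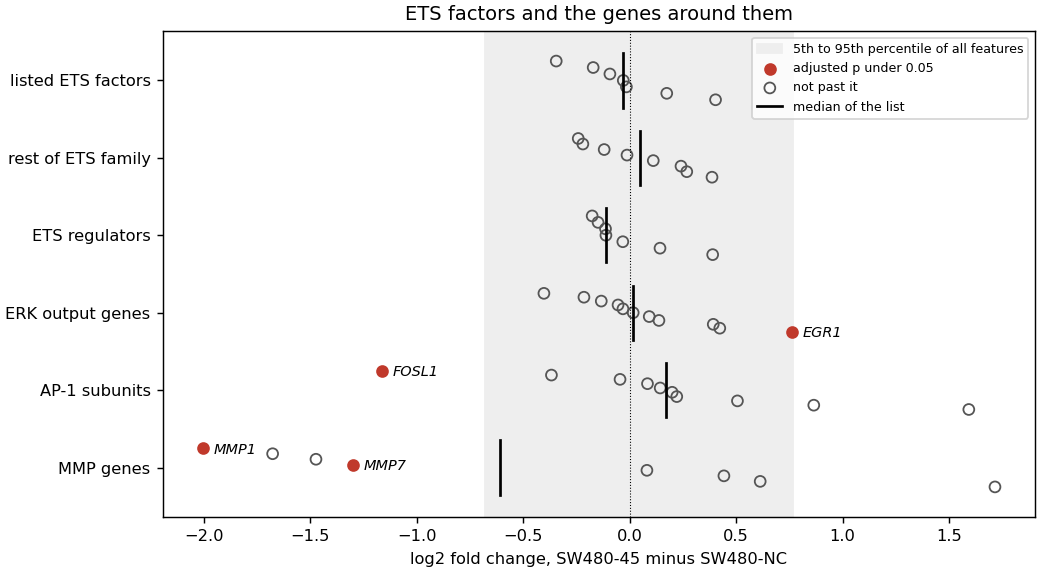
Log2 fold change of SW480-45 against SW480-NC (x axis) for the genes of 6 lists (y axis), with 1 circle per gene, filled where the adjusted p was under 0.05, a line at the median of each list and a grey band for the 5th to 95th percentile of all features (−0.68 to 0.77). The 7 ETS factors lie within the band, from −0.34 to 0.40, as does the called gene EGR1, at 0.76. The called genes MMP1, MMP7 and FOSL1 lie below it.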

How the data were processed

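RNA of 3 SW480-45 and 3 SW480-NC libraries was prepared with a kit for Illumina sequencing. The authors deposited normalized counts, a signal per feature made by dividing gene reads by 1 size factor per library, for 25927 Ensembl genes and 33265 assembler loci. The submitters' processing notes name bcl2fastq, HISAT2, DESeq2 and GRCh38, and the paper names Cuffdiff. The counting tool, its strand setting and the annotation are not given in the sources used here. All values were whole multiples of 1 step per library (100% within 0.01 reads), which gave back the reads.

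The cell lines were compared with limma 3.58.1 in R 4.3.3 with a trend of the variance on intensity. The values were log2(normalized count + 1) of features whose mean reached 10, with Benjamini-Hochberg adjustment. Because edgeR 4.0.16 (quasi-likelihood, TMM) and DESeq2 1.42.0 need reads, they ran on the recovered reads as alternatives. Steps were tested on simulated data whose planted changes were larger than any ETS difference here. That test does not cover small differences. Intervals are 95% confidence intervals of the mean log2 difference, from the limma standard error, which rests on the spread between libraries. Each side is a single line, so other differences between the lines cannot be told apart from an effect of the guide. Symbols came from a table of gene names (25595 of 25927 Ensembl genes matched), coordinates and exon lengths from GENCODE 29, and promoter windows from RefSeq on GRCh38.p14. The members and lists were chosen with earlier results of these data known. One gene of the regulator list is not reported here. The text names HPSE, all members, every gene past the adjusted threshold and the highest and lowest gene of the 5 lists beside the members (other ETS genes, regulators, ERK output, AP-1 and MMP), and some genes fixed by name. The rule did not cover the marker lists. Marker genes and other list genes, among them ETV6, DUSP4 and the feedback inhibitors, and the EGR1 window were named after their values were seen.

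The alternatives were a filter at a mean of 50, no filter, a pseudocount of 5, quantile normalization, no trend, the replicate number as a block and each library left out. Same-numbered libraries did not deviate together (r = 0.002, -0.02 and 0.007). Python 3.11.15 and matplotlib 3.10.9 drew the figures.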

Additional observations from a re-analysis of the deposited data

How the results depend on the processing

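ETV4, EHF and ELF4 kept their direction in all 14 alternatives, as did HPSE, EGR1, FOSL1, MMP1, MMP7 and MMP10. ETV1 and ETS1 also kept theirs in all 14, with unadjusted p-values of only 0.387 and 0.331 in limma. A kept direction therefore does not set ETV4, EHF and ELF4 apart. The number of ETS factors past the adjusted threshold was 0 in every alternative except DESeq2, with 2 (ETV4, adjusted p = 0.0381, log2 0.41, and ELF4, adjusted p = 0.0483, log2 −0.35). Without an intensity trend 11 features were called in all, against 756 in DESeq2. ETS2 turned to 0.0107 with quantile normalization and ELF1 to 0.0015, and ELF1 was 0.10 without SW480-45 replicate 1 and 0.02 without SW480-NC replicate 2. The cause was not tested. The median of the ETS factors ran from −0.12, without SW480-45 replicate 3, to −0.0061 in the fits that left out 1 library. With quantile normalization that median turned to 0.0015. The ETS factors at an unadjusted p under 0.05 numbered 2 or 3 throughout. HPSE passed the adjusted threshold in DESeq2 (log2 −0.83, adjusted p = 0.000948), with all features (−0.83, 0.0451) and with a mean of at least 50 (−0.83, 0.046). Without an intensity trend 0 ERK output genes, 0 AP-1 genes and 1 MMP gene were called. MMP1 was the MMP call lost, there (adjusted p = 0.0749) and with the block below (0.061). AP-1 calls were 2 in DESeq2. MMP calls were 3 in DESeq2 and with all features, where MMP10 passed (adjusted p = 0.000578 and 0.0324). With 1 library left out, calls ran from 0 to 1 for ERK output genes and from 0 to 1 for AP-1 genes. The replicate numbers did not pair the libraries. With the replicate block 12 features were called in all, among them 0 ETS factors, 0 ERK output genes, 0 AP-1 genes and 1 MMP gene. For a gene at 0 reads in a library, an expected count of up to 3 reads was taken as possible.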
